A study of Homo sapiens with 4 samples.

Results

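The multidrug ABC transporters examined here are ABCB1, ABCC1, ABCC2, ABCC3, ABCC4, ABCC5 and ABCG2. They are 7 of the 20348 genes in the deposited table and were taken by Ensembl identifier, as named in GENCODE release 29. The transcriptome was sequenced in K562, an established human line from a chronic myeloid leukemia, and in THP-1, an established human line from an acute monocytic leukemia. Each line was kept for 72 h in 100 nM periplocin, a plant cardiac glycoside, or for the same time in DMSO, its solvent. There were 4 libraries, 1 for each line and treatment. No genetic change was introduced in either line. The titles call the solvent libraries blank controls, while their library names and the study's methods give DMSO.

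ABC transporters are membrane proteins that use the energy of ATP to move substrates across a membrane. The members described here export drugs, drug conjugates and natural metabolites from cells, and several were first recognised in cell lines selected for resistance to chemotherapy. ABCB1, or P-glycoprotein, takes hydrophobic drugs, and the cardiac glycoside digoxin is a well-known substrate of it. The ABCC members export organic anions and conjugates with glutathione, glucuronide or sulfate. ABCG2, the breast cancer resistance protein, is known in blood for its expression in early stem cells and in erythroid cells.

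With 1 library per condition there was no check against the spread between replicates. A gene was called when edgeR's exact binomial test on the counts of 2 libraries gave an adjusted p under 0.05 over all genes tested and the log2 ratio was at least 1 in either direction. Such a call compares those libraries and covers counting error only, so it does not show that the conditions differ. The words rose, fell, higher and lower are used for called ratios in this sense. Levels are CPM, counts per 1000000 of the TMM-scaled library size, and ratios of CPM carry 95% exact counting intervals. Differences of log2 ratios between the lines carry 95% intervals by a normal approximation from the counts, which is rough at low counts. RNA came from bulk cultures, so fewer cells of a kind and less RNA per cell cannot be told apart.

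Library totals lay between 16381149 and 20622694 counts, and the floor of 3 counts was between 0.152 and 0.177 CPM. All 28 member values were whole numbers. The lines matched their labels by their markers. All 8 erythroid and megakaryocytic markers were higher in K562 and all 8 monocytic markers were higher in THP-1, with DMSO or with periplocin. The summed K562 markers were at 4.0 and 2.36 CPM in the THP-1 libraries. In K562 they went from 2068 CPM in DMSO to 8583 CPM in periplocin. Of the 8, 7 rose, where 8.17% of all genes did. HBG2 alone went from 739 to 3338 CPM there, and HBG1 from 462 to 2157 CPM. Mitochondrial genes took 5.62% of counts with DMSO and 2.07% with periplocin in K562, and 5.24% and 3.92% in THP-1. The part of these shifts in the transporter values was not tested. Among 8 markers of other cells, MS4A1 was at 0 in every library and CD3D and CD3E at 0 in THP-1. In K562, DMSO first, CD3D had 121 and 105 counts and CD3E 10 and 5. The summed level of the 8 markers, between 293 and 635 CPM, came mostly from KRT18 and EPCAM in K562 and from PECAM1 in THP-1.

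The upstream sequences below belong to the members that moved with periplocin. ABCC2, ABCC5 and ABCG2 rose together in K562, while ABCB1 fell there and rose in THP-1. They are RefSeq sequences on GRCh38.p14, and a promoter window was matched for 5 members, with ABCC1 and ABCC3 unmatched. Each window covers 250 bases before a start site, of which the start nearest to that of the longest coding transcript was taken. Only the outer stretch that no annotated exon of the gene covers is printed, 5′ to 3′, with motif matches in capitals. The stretches are ABCC2 at chr10:99782390-99782639 on the plus strand, ABCC5 at chr3:184018016-184018134, ABCG2 at chr4:88159025-88159159 and ABCB1 at chr7:87601079-87601134, the last 3 on the minus strand.
ABCC2: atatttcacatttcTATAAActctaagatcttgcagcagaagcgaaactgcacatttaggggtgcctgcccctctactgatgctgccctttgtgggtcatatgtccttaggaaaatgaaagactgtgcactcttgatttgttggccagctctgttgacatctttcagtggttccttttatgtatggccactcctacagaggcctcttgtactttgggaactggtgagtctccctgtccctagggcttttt
ABCC5: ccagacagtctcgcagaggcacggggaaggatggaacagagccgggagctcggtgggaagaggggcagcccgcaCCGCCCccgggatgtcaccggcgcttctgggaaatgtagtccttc
ABCG2: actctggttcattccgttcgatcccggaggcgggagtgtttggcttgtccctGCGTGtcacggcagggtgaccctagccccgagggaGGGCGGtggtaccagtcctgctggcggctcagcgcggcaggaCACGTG
ABCB1: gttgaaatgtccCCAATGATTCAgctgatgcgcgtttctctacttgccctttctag

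The 250-base windows were searched on both strands for 7 motifs. These were the GC box GGGCGG (in 42.6% of all 35116 windows), the CCAAT box CCAAT (32.0%), the TATA box TATAAA (10.7%), the antioxidant response core TGACNNNGC (10.9%), the AP-1 site TGANTCA (6.6%), the E-box CACGTG (6.3%) and the xenobiotic response core GCGTG (32.2%). The ABCC2 window had a GC content of 45.6% and a single match, the TATA letters 236 bases before the start. The ABCG2 window, at 71.2% GC, held GC boxes 163 and 52 bases before the start, an E-box at 121 and xenobiotic cores at 198 and 64. The ABCC5 window, at 64.8% GC, held a GC box at 176 bases and TATA letters at 28. The ABCB1 window, at 55.6% GC, held CCAAT boxes at 238 and 79 bases, an AP-1 match at 234 that overlaps the former, and a xenobiotic core at 53. The ABCC4 window, at 80.4% GC, held an antioxidant core at 149 bases and xenobiotic cores at 117 and 34. No motif was shared by all 3 members that rose in K562. RefSeq lists 5 starts for ABCG2 and 2 for ABCB1, and counts per gene do not tell them apart.

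Levels between genes were compared per kb of the longest coding transcript. ABCC1, ABCC4 and ABCC5 made up most of the summed level of the 7 genes in each library. That sum was 51.9 CPM per kb with DMSO and 82.6 with periplocin in K562, and 19.8 and 23.5 in THP-1. In K562 DMSO the order was ABCC4 (19.2 CPM per kb), ABCC5 (14.5), ABCC1 (12.7), ABCG2 (2.85), ABCB1 (2.56), ABCC2 (0.0303) and ABCC3 (0.0103). ABCG2 and ABCB1 overlapped there in their counting intervals, as did ABCC2 and ABCC3. In K562 periplocin ABCC5 led at 31.6 CPM per kb, before ABCC4 at 22.0, ABCC1 at 19.1, ABCG2 at 8.18, ABCB1 at 1.25, ABCC2 at 0.505 and ABCC3 at 0.0201, and no neighbours overlapped.

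In THP-1 the order of levels was headed by ABCC1. In THP-1 DMSO it was at 9.24 CPM per kb, followed by ABCC4 at 7.87, ABCC5 at 2.20, ABCC2 at 0.384, ABCB1 at 0.0636, ABCC3 at 0.0620 and ABCG2 at 0. The last 3 could not be separated by their intervals. In THP-1 periplocin ABCC1 was at 10.4 CPM per kb, ABCC4 at 7.72, ABCC2 at 2.36, ABCC5 at 2.30, ABCB1 at 0.705, ABCG2 at 0.0264 and ABCC3 at 0.0103. ABCC2 and ABCC5 overlapped, and so did ABCG2 and ABCC3. The place of ABCC2 thus changed from the fourth to the third. With the union of all exons as the length, a choice made after seeing the data, the THP-1 orders stayed and the top 3 in K562 changed places. They then ran ABCC4, ABCC1, ABCC5 in DMSO and ABCC1, ABCC5, ABCC4 in periplocin, where the intervals of ABCC1 and ABCC5 overlapped. ABCC2 and ABCC5 no longer overlapped in THP-1 periplocin with that length.

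**Figure D1:**
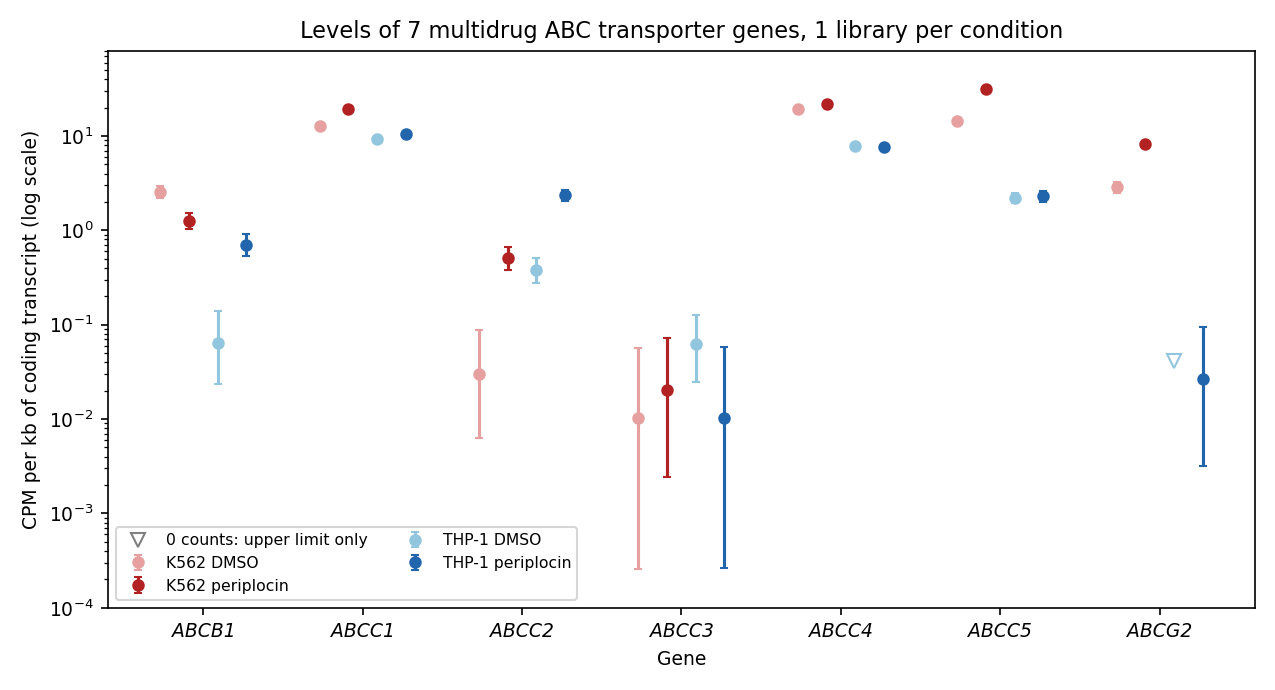
Levels of the 7 transporter genes in each of the 4 libraries, in CPM per kb of coding transcript on a log axis; points are single libraries, bars are 95% exact Poisson intervals for counting error only, and the open triangle is the upper limit of the library with 0 counts. ABCC1, ABCC4 and ABCC5 lie highest except in THP-1 periplocin, where ABCC2 lies level with ABCC5; ABCG2 is well above the floor in K562 only, and the ABCC3 intervals are wide in every library.

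ABCB1, on chromosome 7 (87503633 to 87713323, minus strand, GRCh38), encodes P-glycoprotein, of 1280 amino acids in 28 exons of its longest coding transcript. It had 209 counts (12.2 CPM) in K562 DMSO and 104 counts (5.98 CPM) in K562 periplocin, against 6 counts (0.304 CPM) in THP-1 DMSO and 57 counts (3.37 CPM) in THP-1 periplocin. Its level was thus highest in K562 DMSO and near the floor in THP-1 DMSO, and the lines lay closer together in periplocin. ABCB1 fell in K562 to 0.489 times its DMSO level (interval 0.382 to 0.621), a log2 ratio of -1.03 that lay just past the threshold. In THP-1 ABCB1 rose 11.1-fold (interval 4.79 to 31.5), a log2 ratio of 3.36. The difference between the log2 ratios of the lines was 4.39 (interval 3.13 to 5.65), and the likelihood ratio test of edgeR at a dispersion of 0 gave it an adjusted p of 1.2e-19. The lines differed 40.3-fold in DMSO, with THP-1 lower (interval 18.2 to 111). In periplocin THP-1 stood at 0.563 times the K562 level (interval 0.400 to 0.785), which was not called.

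ABCB4, the phospholipid transporter gene that lies next to ABCB1 on the same strand and is its closest relative, had 2 and 6 counts in K562 and 140 and 599 in THP-1, DMSO first. It rose in THP-1 with periplocin by 2.32 on the log2 scale. Reads that fit both genes may have been divided between them, and this was not tested in either line. In K562 DMSO ABCB1 had 209 counts beside 2 on ABCB4. In THP-1 it had 6 beside 140 with DMSO and 57 beside 599 with periplocin. RUNDC3B, which overlaps the ABCB1 span on the opposite strand, had 3 to 13 counts. No exon of any member overlapped an exon of another annotated gene.

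ABCG2, on chromosome 4 (88090264 to 88231322, minus strand), encodes a shorter protein of 655 amino acids that works as a dimer. It had 218 counts (12.8 CPM) in K562 DMSO and 637 counts (36.6 CPM) in K562 periplocin, but 0 in THP-1 DMSO and 2 (0.118 CPM) in THP-1 periplocin. Both THP-1 libraries were below the floor and both K562 libraries far above it. ABCG2 rose 2.87-fold in K562 (interval 2.46 to 3.36), a log2 ratio of 1.52. In THP-1 no fold is given, since both counts were at or under the floor, and a change there was not detectable at this depth. In DMSO the level was at least 84.1-fold lower in THP-1 than in K562 when the 0 counts are set to the floor of 3 in that library. The 95% exact counting limit of the same ratio, which also carries the error of the K562 count, was 67.8-fold. In periplocin the ratio on 2 counts in THP-1 was 310-fold lower (interval 85.5 to 2566). Of the genes on either side, PKD2 fell in K562 with periplocin (254 to 72 counts) and PPM1K rose in THP-1 (272 to 717 counts).

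ABCC5, on chromosome 3 (183919934 to 184018015, minus strand), encodes MRP5, a widely expressed exporter of cyclic nucleotides and nucleotide analogs. K562 had 1465 counts (85.8 CPM) with DMSO and 3248 (187 CPM) with periplocin, and THP-1 had 257 (13.0 CPM) and 230 (13.6 CPM). The K562 level went up with periplocin while the THP-1 level stayed within its counting error. ABCC5 rose 2.18-fold in K562 (interval 2.05 to 2.32), and in THP-1 its ratio was 1.05 (interval 0.871 to 1.25). The difference of the log2 ratios was -1.06, THP-1 minus K562 (interval -1.33 to -0.79, adjusted p = 1.7e-13 by the same likelihood ratio test of edgeR). THP-1 was 6.60-fold lower than K562 in DMSO (interval 5.78 to 7.56) and 13.7-fold lower in periplocin (interval 12.0 to 15.8). PARL, the next gene on that strand, had 280 and 245 counts in K562 and was higher in THP-1, at 1421 and 1103.

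ABCC2, on chromosome 10 (99782640 to 99852594, plus strand), encodes MRP2, which carries conjugates such as bilirubin glucuronide into bile. K562 had 3 counts (0.176 CPM) with DMSO and 51 (2.93 CPM) with periplocin, and THP-1 had 44 (2.23 CPM) and 232 (13.7 CPM). ABCC2 was thus the member that rose in both lines. The ratio was 16.7 in K562, with a wide interval of 5.40 to 83.6 from the 3 counts in DMSO, and 6.16 in THP-1 (interval 4.45 to 8.70). The difference of the log2 ratios was -1.25, THP-1 minus K562 (interval -2.99 to 0.50), and did not pass the test. ABCC2 was also the member that was higher in THP-1, by 12.7-fold in DMSO (interval 4.06 to 63.8) and 4.67-fold in periplocin (interval 3.44 to 6.46). The flanking genes COX15 and DNMBP were not called in any of the 4 comparisons.

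ABCC1, on chromosome 16 (15949577 to 16143074, plus strand), encodes MRP1, which exports glutathione conjugates and leukotriene C4. In K562 the DMSO library had 1425 counts (83.5 CPM) and the periplocin library 2180 (125 CPM), against 1196 (60.5 CPM) and 1153 (68.1 CPM) in THP-1. The periplocin ratio was 1.50 in K562 (interval 1.40 to 1.61) and 1.13 in THP-1 (interval 1.04 to 1.22). These ratios excluded 1 in their counting intervals but none was called. The THP-1 to K562 ratio of 0.725 in DMSO and 0.543 in periplocin was likewise under the threshold, though the latter was called when libraries were scaled by total counts (log2 ratio -1.02). The neighbouring paralog ABCC6 had 0 and 1 counts in K562 and 599 and 352 in THP-1.

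ABCC4, on chromosome 13 (95019829 to 95301475, minus strand), encodes MRP4, an exporter of cyclic nucleotides and prostaglandins. In K562 there were 1923 counts (113 CPM) with DMSO and 2237 (129 CPM) with periplocin, and in THP-1 910 (46.1 CPM) and 765 (45.2 CPM). Both K562 libraries lay above both THP-1 libraries. The periplocin ratio was 1.14 in K562 (interval 1.07 to 1.21) and 0.982 in THP-1 (interval 0.891 to 1.08), and neither was called. THP-1 was 2.45-fold lower in DMSO (interval 2.26 to 2.65) and 2.85-fold lower in periplocin (interval 2.62 to 3.09).

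ABCC3, on chromosome 17 (50634777 to 50692252, plus strand), encodes MRP3, an exporter of glucuronides and bile salts. K562 had 1 count with DMSO and 2 with periplocin, and THP-1 had 7 and 1. These counts were too few for a call. The THP-1 ratio of periplocin to DMSO was 0.167 with an interval of 0.0037 to 1.3.

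In K562, 4 of 7 members were called with periplocin, against a background of 18.2% of all genes tested. They were 3 rises, where 8.17% of all genes rose, and 1 fall, where 10.1% fell. In THP-1, 2 of 7 were called, against 18%, and both were rises, where 8.2% of all genes rose and 9.84% fell. The median log2 ratio was 0.85 over the 6 members above the floor in K562 and 0.12 over 6 in THP-1. Over all 7 members it was 0.72 and 0.17, against -0.00 and -0.02 over all genes tested. The 7 genes are few and the pair comparisons have no replicate error, so these shares describe the libraries only.

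**Figure D2:**
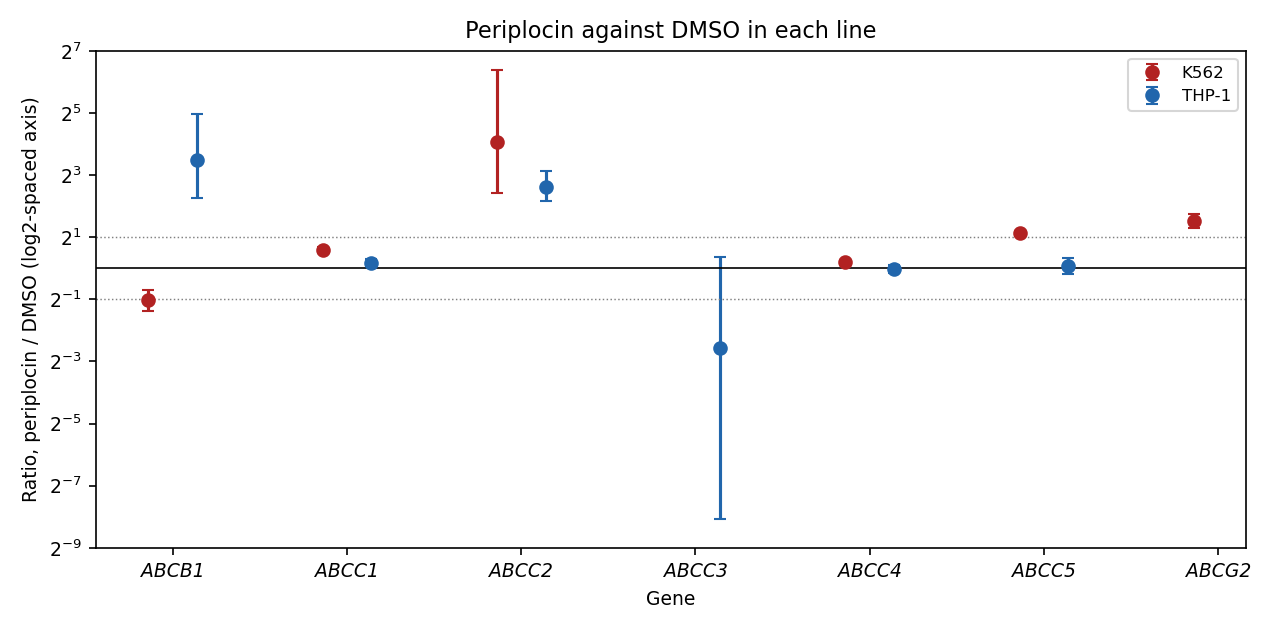
Ratio of periplocin to DMSO for each transporter gene in K562 and in THP-1, on a log2-spaced axis, with bars for the 95% exact counting interval and dotted lines at the calling threshold; ratios with both counts at or under 3 are not drawn (ABCC3 in K562, ABCG2 in THP-1). ABCB1 lies at 0.489 in K562 and at 11.1 in THP-1, while ABCC2 lies above the upper line in both.

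Between the lines, 5 of 7 members were called in DMSO, 1 higher and 4 lower in THP-1. The background was 41.1% of all genes, with 21.7% higher and 19.4% lower in THP-1. In periplocin 4 of 7 were called, against 43.8%, again with ABCC2 higher, and ABCC4, ABCC5 and ABCG2 lower. ABCB1 was called in DMSO and not in periplocin. The median log2 ratio of THP-1 to K562 was -1.29 over 7 members in DMSO, against 0.04 over all genes. In periplocin it was -1.19 over the 6 above the floor and -0.88 over all 7, against -0.03 over all genes. The periplocin response differed between the lines for 2 of 7 members, ABCB1 and ABCC5, against 17% of all genes.

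**Figure D3:**
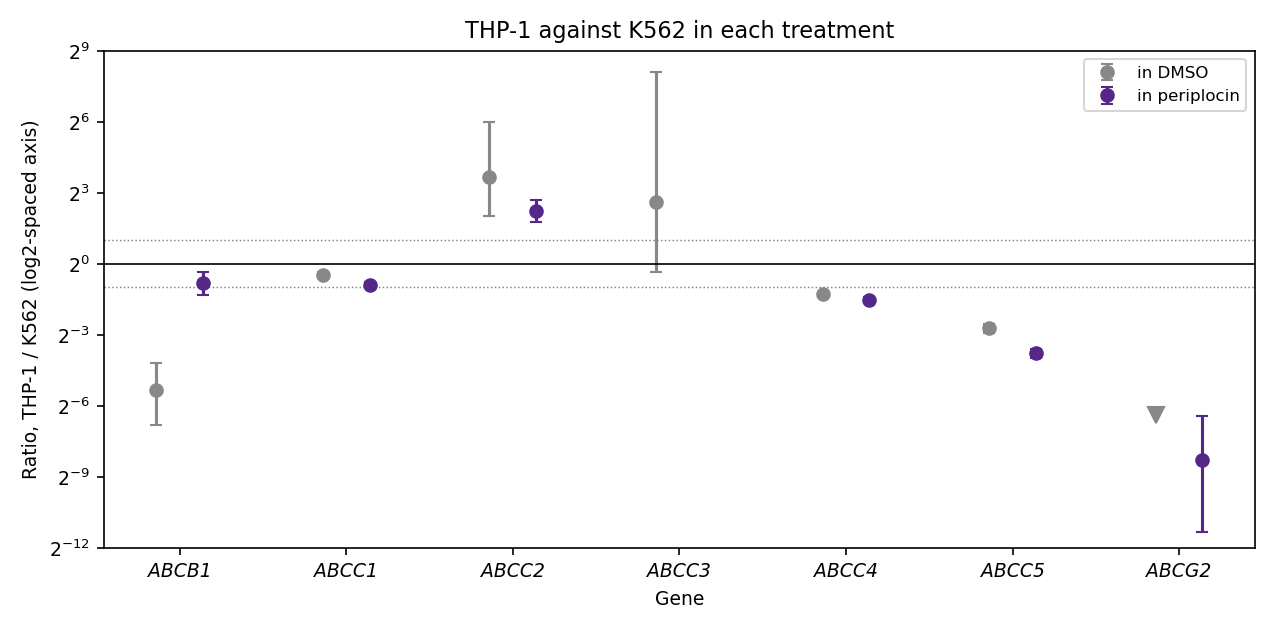
Ratio of THP-1 to K562 for each transporter gene, in DMSO and in periplocin, on a log2-spaced axis, with bars for the 95% exact counting interval; the triangle is the bound for ABCG2 in DMSO, computed against 3 counts, and ABCC3 in periplocin is not drawn since both counts were at or under 3. ABCC2 lies above 1 in both treatments, ABCC4, ABCC5 and ABCG2 lie below the lower dotted line in both, and ABCB1 moves from 40.3-fold lower to 0.563.

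An additive model of line and treatment was fitted over the 4 libraries with the quasi-likelihood method of edgeR. It had 1 residual degree of freedom, so its error came from the disagreement between the responses of K562 and THP-1. Of the 6 members with enough counts, 4 passed for the line term, where 35.6% of all genes did. Their log2 differences, THP-1 minus K562, were 2.74 for ABCC2 (edgeR adjusted p = 0.026), -1.40 for ABCC4 (0.011), -3.25 for ABCC5 (0.0018) and -8.66 for ABCG2 (0.00070). ABCG2 had a library at 0, so its fitted value is no bound. ABCB1, at -2.82, did not pass (edgeR adjusted p = 0.126). For the treatment term 0% of 13584 genes passed in edgeR, while 1500 had an unadjusted p under 0.05 and DESeq2 passed 137. No member was among those 137. ABCC2 had the largest treatment term of the members, a log2 ratio of 3.14 with an edgeR adjusted p of 0.397, followed by ABCG2 at 1.68 with 0.430.

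The pair calls depended on the error assumed between replicates. With a dispersion of 0.04 added to counting error, ABCC2 and ABCG2 still passed in K562, ABCB1 and ABCC2 in THP-1, and ABCB1 in the difference of responses. With 0.16, no member passed in any comparison of periplocin with DMSO, while ABCB1, ABCC2, ABCC5 and ABCG2 passed between the lines in DMSO. Between the lines in periplocin, ABCC5 and ABCG2 passed at 0.16, while ABCC2 and ABCC4 lost their calls. In the difference of responses no member passed at 0.16, and ABCC5 was already lost at 0.04.

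The genome holds other ABC genes, of which 41 were listed here by subfamily. With periplocin, 5 of 32 tested were called in K562, 2 higher and 3 lower, and 6 of 35 in THP-1, 5 higher and 1 lower. These were 15.6% and 17.1% of those tested, near the 18.2% and 18% of all genes. ABCB6, a porphyrin transporter, rose in both lines, by 1.66 on the log2 scale in K562 (654 to 2113 counts) and 1.68 in THP-1 (38 to 105 counts). ABCA1, which loads cholesterol onto lipoproteins, rose in THP-1 (756 to 1778 counts, log2 ratio 1.46), where ABCA2 fell (4656 to 1478 counts, -1.43). ABCC10, another drug exporter of the ABCC subfamily, fell in K562 (626 to 293 counts, -1.12), as did ABCA5 (65 to 32 counts, -1.04). By subfamily, calls with periplocin in K562 and THP-1 were 1 of 10 and 2 of 9 ABCB genes tested, 1 of 5 and 1 of 5 ABCC genes, 0 of 1 and 1 of 3 ABCG genes and 3 of 8 and 2 of 10 ABCA genes. They were 0 in both lines among 4 ABCD and among 4 ABCE and ABCF genes. The response differed between the lines for 2 of 39 tested, or 5.13%, where 17% of all genes did, and the difference for ABCB6 was 0.01.

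**Figure D4:**
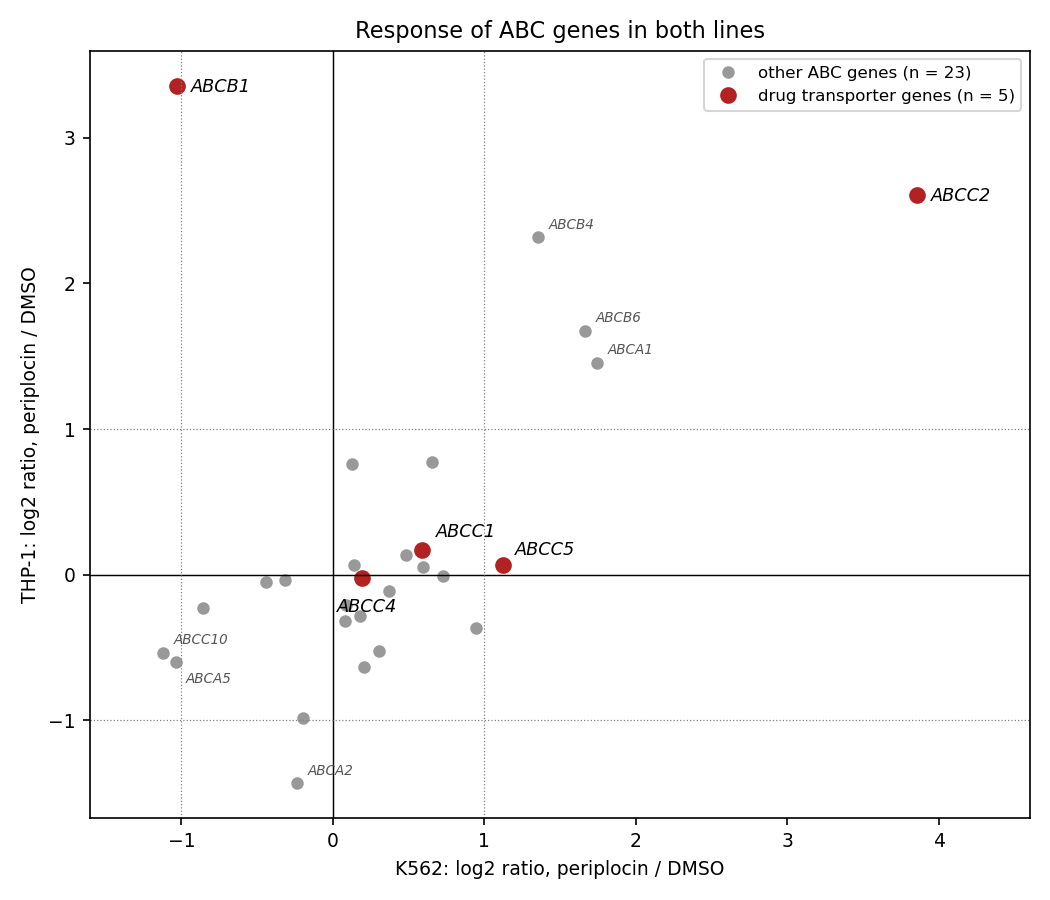
Log2 ratio of periplocin to DMSO in K562 (x axis) and in THP-1 (y axis) for 5 of the drug transporter genes, in red, and 23 other ABC genes, in grey; each point is a gene, with 1 library per condition and dotted lines at the threshold. Genes with a library at 0 counts, or with no library above 3 counts in a line, are not drawn, which leaves out ABCG2 and ABCC3. ABCB1 lies alone at the upper left and ABCC2 at the upper right with ABCB4, ABCB6 and ABCA1. Of these, ABCB4 (2 to 6 counts) and ABCA1 (2 to 8 counts) were not called in K562. ABCC1, ABCC4 and most others lie near the centre.

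Other carriers bring drugs into cells. Of 18 such uptake carriers, 15 were tested in K562, where 4 rose and 0 fell, and 14 in THP-1, where 0 rose and 3 fell. Among all genes 8.17% rose in K562 and 9.84% fell in THP-1. SLC29A1, the main nucleoside carrier and the route of cytarabine into cells, had 3142 counts with DMSO and 6959 with periplocin in K562, and 2285 and 1522 in THP-1. It rose in K562 by 1.12 on the log2 scale and was at -0.36 in THP-1, and the difference passed the test. SLC29A2, the other equilibrative nucleoside carrier, went from 42 to 3 counts in THP-1 (log2 ratio -3.40) and from 370 to 247 in K562 (-0.61). The organic cation carrier SLC22A16 and the anion carrier SLCO3A1 had 788 and 677 counts in THP-1 DMSO and 0 and 2 in K562 DMSO.

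Glutathione, which ABCC1 and ABCC2 export with conjugated drugs, is made and attached by enzymes of 2 further lists. Of 16 glutathione S-transferases, 2 rose and 2 fell among 15 tested in K562, and 1 rose and 3 fell among 14 in THP-1, where 18.2% and 18% of all genes were called. GSTZ1 fell in both lines (K562 133 to 41 counts, THP-1 176 to 25 counts). GSTM1 fell in THP-1 (835 to 173 counts) and had 0 and 2 in K562, and GSTM3 rose in K562 (88 to 206). GSTP1, the most abundant of those named, had 5941 counts in K562 DMSO and 10771 with periplocin, against 2758 and 1893 in THP-1, and neither ratio was called. Of 6 glutathione synthesis genes, 1 was called in K562 and 2 in THP-1. GSS, the synthetase, fell in both lines, from 1417 to 560 counts and from 853 to 228. SLC7A11, the cystine carrier, rose in THP-1 (494 to 1147 counts). None of the vault and other efflux genes was called with periplocin, of 4 tested in K562 and 6 in THP-1. The major vault protein gene MVP was higher in THP-1, at 1402 against 102 counts in DMSO.

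Among 20 transcription factors and other regulators known to act on these transporter genes, 2 rose and 1 fell of 18 tested in K562. In THP-1 3 rose and 1 fell of 20, and both shares were near those of all genes (18.2% and 18% called). EGR1 fell in both (K562 2182 to 467 counts, THP-1 339 to 130 counts). AHR, the factor that binds the xenobiotic core, rose in THP-1 from 393 to 1081 counts and had 0 and 2 in K562. PPARG rose in THP-1 from 102 to 390 counts and was at 0 in both K562 libraries. NFYC, a subunit of the CCAAT-binding factor, was higher in THP-1 (15309 against 1450 counts in DMSO) and was not called with periplocin. Of the other subunits in DMSO, NFYA was higher in THP-1 (2842 against 697 counts). NFYB was not called there (787 against 882 counts). Among 8 anchoring and trafficking partners, 1 rose in K562 and 1 rose and 1 fell in THP-1. Of all genes, 8.17% rose in K562, and 8.2% rose and 9.84% fell in THP-1. PIM1, a kinase known to act on ABCB1 and ABCG2 proteins, had 14315 and 13006 counts in K562 and rose in THP-1 from 205 to 392.

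The pattern of each member over the 4 libraries was compared with 13583 other genes by the distance of centred log2 CPM, where a small distance means a like pattern. The distance counts size as well as direction, and all points share the same 4 libraries. ABCB1 had 1 gene within a distance of 0.5, HLA-DOB at 0.36, followed by HDGFL3 at 0.52 and ICAM1 at 0.58. ABCC2 and ABCG2 had none within 0.5. The nearest were CCDC168 at 0.61 for ABCC2 and HOXC13 at 0.69 for ABCG2. CCDC168 had 2 counts in K562 DMSO, HOXC13 0 and 1 in THP-1, and HLA-DOB 1 in THP-1 DMSO. At such counts the distance depends in part on the prior count of 0.5. ABCC5 had 27, led by ITGB3 at 0.26. ABCC1, with 872 headed by TRIM52, and ABCC4, with 436 headed by MRPL49, had the most such genes of the 6 members compared.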

How the data were processed

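The authors isolated poly-A RNA, sequenced it in paired ends, with read filtering by the company, and deposited expected counts per gene, neither normalized nor pooled, with 0 columns unused here. The submitters' processing notes name hg38, HISAT2 and StringTie 1.3.1 without their roles. The counting program is not given in the sources used here. Dose and time come from the study's methods. The study states a single biological replicate.

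Counts were rounded to whole numbers and scaled by TMM over the 4 libraries in edgeR 4.0.16 (R 4.3.3). Each pair was tested with edgeR's exact binomial test over genes with at least 1 count, adjusted by Benjamini-Hochberg at 0.05, with an absolute log2 ratio of at least 1 and a prior count of 0.5. The difference of responses used edgeR's likelihood ratio test at dispersion 0. The additive fit used edgeR's quasi-likelihood test on genes reaching 10 counts in 2 or more libraries (common biological coefficient of variation 0.317), with DESeq2 1.42.0 as alternative. Log2 ratios include the prior count, while ratios and their Clopper-Pearson intervals do not. Where a program divides ambiguous reads between genes, the true error exceeds counting error. Functions were tested on simulated data first. Other scalings, filters, dispersions, thresholds and prior counts were tried. Python 3.11.15 with matplotlib 3.10.9 drew the figures.

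The members and the gene lists were chosen with earlier results of these data known. Named were all members, up to 4 genes per list with the largest called log2 ratio and a mean of at least 5 CPM, the 3 nearest patterns, and adjoining genes. NFYA and NFYB were added as the other subunits of the CCAAT-binding factor. Protein sequences were not used here.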

Additional observations from a re-analysis of the deposited data

Results flagged for a closer look

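The periplocin response differed between THP-1 and K562, by the likelihood ratio test of edgeR at dispersion 0, for 16 of the 53 members and named list genes. This difference was called for 17% of all genes tested. The named list genes were picked for large called ratios in these same libraries, so their share cannot be set against that of all genes. Values are the THP-1 minus the K562 log2 ratio, with no replicate error.

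Of the transporters, ABCB1 was at 4.39, with opposite signs in the lines, and ABCC5 at -1.06, with a ratio near 1 in THP-1. ABCA2, a lipid transporter, was at -1.20 with its fall in THP-1. Of the uptake carriers, SLC29A2 was at -2.79 and SLC29A1 at -1.48. Of the glutathione genes, GSTM1 was at -4.36, GSTP1 at -1.15 and SLC7A11 at 1.69. EGR1 was at 1.09, falling in both lines and further in K562, and PIM1 was at 1.32.

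Of the line markers, HBG2 was at -7.68, TAL1 at -3.08, HBG1 at -2.45, FCGR1A at 3.66 and SPI1 at 1.41. Counts were few for TAL1 (10 to 2) and HBG1 (22 to 16) in THP-1 and for FCGR1A (11 to 2) in K562. PECAM1, in the list for other cells and high in THP-1, was at 2.19. For HBG2 and GSTM1 a library had 0 counts, so the fitted value depends on the prior count and is no bound.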

How the results depend on the processing

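With 1 library per condition, no call was checked against replicates, and low counts limit ABCC3, ABCG2 in THP-1 and ABCC2 in K562 DMSO. Among the members, size factors from DESeq2 turned the sign of ABCC4 in THP-1 with periplocin, from -0.03 to 0.011, both uncalled. Total counts added the call of ABCC1 between the lines in periplocin, where its log2 ratio went from -0.88 to -1.02. The calls of members were otherwise the same genes under both scalings and the filters on low counts, and, in the 4 pair comparisons, a prior count of 2. Total counts shifted the median of all genes by -0.12 between the lines in DMSO and -0.14 in periplocin.

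Counts of genes called went with the assumed dispersion and the threshold. With periplocin in K562 they were 2903, and 1728 at a dispersion of 0.04, 100 at 0.16 and 930 at an absolute log2 ratio of at least 2. In THP-1 they were 2889, and 1626, 88 and 948. Between the lines, 6747 in DMSO became 3360 at 0.16 and 4239 at the stricter ratio, and 7283 in periplocin became 3519 and 4545. The difference of responses went from 2926 to 810 at 0.04 and 42 at 0.16. The treatment term passed 0 genes, 137 with DESeq2, 1 with total counts and 1 with genes of at least 1 count in any library. At the stricter ratio ABCC2 kept its call in both lines and ABCB1 in THP-1. The labels give no replicate numbers that pair libraries; the additive fit over the 4 libraries compares the treatments within the lines.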
